A study of Homo sapiens with 6 samples.

Results

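The genes described here are androgen-induced genes and secretory products of the apocrine type of breast epithelium: PIP, FKBP5, AZGP1, SCGB2A2, SCGB1D2, MUCL1, ZG16B and TMPRSS2. They were taken by symbol, through the Ensembl identifier of each row, and make up 8 of the 60656 genes in the table. The members were chosen by name with their fold changes in the treatment comparison in view, so their values are given as a description, with no p, and no count over them is evidence of a change. Of the 8 genes, 7 had counts. TMPRSS2 had 0 counts in all 6 libraries. RNA was measured in parental ZR-75-1 cells, an oestrogen receptor-positive human breast cancer line of luminal type, grown for 4 days with 500 nM abemaciclib, a CDK4/6 inhibitor (3 libraries), or with an equal volume of its solvent DMSO (3 libraries). Cells of both groups carried no engineered change and grew in the same RPMI-1640 medium with fetal bovine serum, and no added androgen is named. The RB1 knockout cells of the study were not analysed here. The line stands for a single tumour, and cultures of it are the replicates.

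Androgens act on gene expression through a steroid-activated transcription factor that is held by chaperones until hormone binds and that then binds DNA at paired hexamers, often at enhancers opened by the pioneer factor FOXA1. In breast epithelium androgen action is best known for the apocrine phenotype, in which cells secrete proteins such as PIP, also called GCDFP-15, and AZGP1, a zinc-binding glycoprotein. PIP and APOD are classical androgen-induced secretory proteins of breast cancer cells, and FKBP5, a co-chaperone of steroid receptors, and TMPRSS2, a transmembrane serine protease, are classical androgen-induced genes in prostate.

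Sequence around the transcription start was taken from RefSeq (GRCh38.p14), from 250 bases before to 50 bases after the start, which gave a window for 7 of the 8 genes and an additional start for FKBP5. Motifs for factors of the luminal and apocrine lineage, and the TATA box, were searched for on both strands. The windows below belong to the gene with the largest difference, PIP, to ZG16B, the window with the most motifs, and to the neighbouring genes SCGB1D2 and SCGB2A2, whose products pair. Capitals mark the motifs found.
PIP, chr7:143131827-143132126, plus strand: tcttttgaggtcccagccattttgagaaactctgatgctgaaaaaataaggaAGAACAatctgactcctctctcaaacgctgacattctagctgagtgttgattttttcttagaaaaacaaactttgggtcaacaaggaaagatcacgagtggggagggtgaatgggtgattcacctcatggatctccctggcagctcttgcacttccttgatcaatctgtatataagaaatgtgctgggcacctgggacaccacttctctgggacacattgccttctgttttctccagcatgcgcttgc
ZG16B, chr16:2830053-2830352, plus strand: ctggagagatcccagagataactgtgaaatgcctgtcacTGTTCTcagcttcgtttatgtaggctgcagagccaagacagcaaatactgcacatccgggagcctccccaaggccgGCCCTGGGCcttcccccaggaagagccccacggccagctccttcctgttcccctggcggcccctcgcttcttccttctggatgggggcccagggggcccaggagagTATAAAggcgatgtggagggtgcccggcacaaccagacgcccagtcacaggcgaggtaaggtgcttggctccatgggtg
SCGB1D2, chr11:62241989-62242288, plus strand: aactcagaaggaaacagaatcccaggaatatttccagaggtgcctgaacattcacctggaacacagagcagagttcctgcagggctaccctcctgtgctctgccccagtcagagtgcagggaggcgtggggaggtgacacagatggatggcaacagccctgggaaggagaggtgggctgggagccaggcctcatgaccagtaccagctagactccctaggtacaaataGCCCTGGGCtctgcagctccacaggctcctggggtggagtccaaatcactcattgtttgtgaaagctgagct
SCGB2A2, chr11:62269908-62270207, plus strand: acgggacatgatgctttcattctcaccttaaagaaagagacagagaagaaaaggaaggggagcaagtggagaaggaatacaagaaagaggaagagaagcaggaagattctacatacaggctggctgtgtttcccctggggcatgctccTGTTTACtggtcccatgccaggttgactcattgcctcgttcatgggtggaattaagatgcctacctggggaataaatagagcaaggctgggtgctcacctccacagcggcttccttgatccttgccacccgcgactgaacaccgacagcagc

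The full androgen response element, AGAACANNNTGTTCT, was in 0 of the 8 windows of these genes and in 1 of 35116 windows of the same length in the whole table. Its single arm, AGAACA, was in the window of PIP, 198 bases upstream of the start, in that of ZG16B, 211 bases upstream on the other strand, and in a window of FKBP5 at the start itself. Of all windows, 14.8% held this arm. A forkhead motif, TGTTTAC, lay 102 bases upstream of the start of SCGB2A2, and 3.42% of all windows held it. The AP-2 motif GCCNNNGGC was in the windows of SCGB1D2, MUCL1 and ZG16B and in 23.2% of all windows. A TATA box in the exact form TATAAA was in the window of ZG16B and in 11.5% of all windows. Looser forms of the box, such as the unmarked tatataa in the window of PIP, were not searched for. The full oestrogen response element, GGTCANNNTGACC, was in 0 windows of the set and in 0.057% of all windows. A match is a description of letters, not of binding, and enhancers lie outside these windows.

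The libraries held 3317860 to 4013156 counts on genes, and every one came from luminal cells by its markers. KRT8, KRT18, KRT19, EPCAM, CDH1, GATA3 and ESR1 summed to between 7188 and 9232 CPM in each library. CPM are counts divided by TMM-adjusted library size. KRT5, KRT14 and TP63 of basal cells, PTPRC and CD3E of immune cells and PECAM1 and CDH5 of endothelium had 0 counts throughout. ACTA2, on the list of basal and myoepithelial genes but shared by other contractile cells, had 9.19 ± 3.69 CPM with DMSO and 1.30 ± 0.710 CPM with abemaciclib (SD, n = 3 in each group; log2 fold change −2.82). It had enough counts for the test through the DMSO libraries alone, so no p is given, and the 5 genes of that list summed to 10.7 to 26.2 and 7.36 to 9.14 CPM. Because a 3′ mRNA library reads the end of each transcript, levels of different genes can be set side by side without a correction for length. At this depth 0 counts allow up to 3, which is 0.736 to 0.904 CPM by library, for counting error alone. Across the table, 10863 genes had enough counts to be tested with edgeR, and their median log2 fold change was −0.00.

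With abemaciclib, PIP was 19.5-fold higher, MUCL1 2.73-fold, AZGP1 1.59-fold, ZG16B 1.49-fold and SCGB2A2 1.28-fold, while FKBP5 and SCGB1D2 stayed within the spread of the libraries. The threshold was 0.05 on the adjusted p of edgeR, over the whole table, where 25.7% of genes were called, 12.5% higher and 13.3% lower. As a description, 5 of the 7 genes with counts were past it upwards (4 without DMSO replicate 2, where SCGB2A2 was not). In the same 5 genes the lowest abemaciclib library exceeded the highest DMSO library, as it did in 19.1% of all genes tested. PIP and MUCL1 reached the minimum for testing through the abemaciclib libraries alone. Since the genes were picked with this comparison in view, these counts are no test of them and nothing is read from them. In RNA from whole cultures, a change in the share of cells that express a gene and a change in its RNA per cell cannot be told apart.

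**Figure D1:**
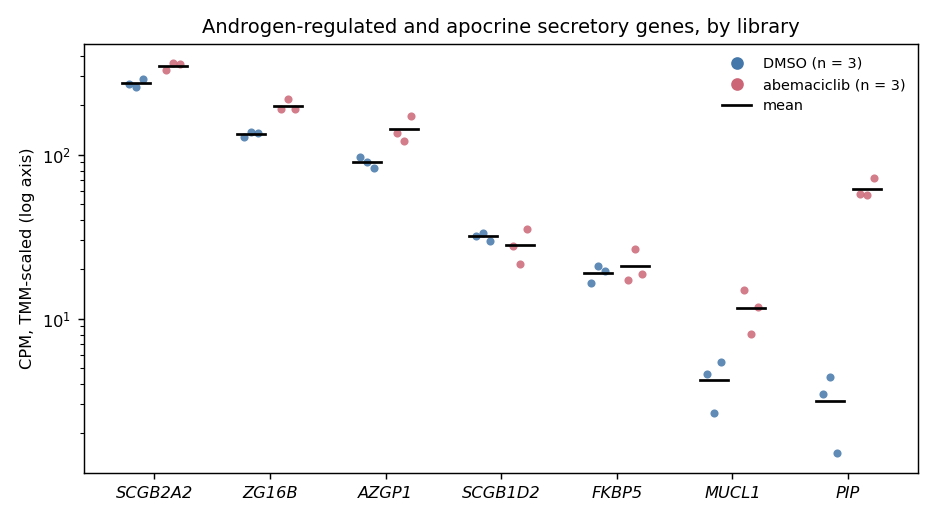
Level of each gene of the set with counts, in CPM on a log axis, in 3 DMSO and 3 abemaciclib libraries, ordered by the DMSO mean. Points are libraries and bars are means. PIP moved from the lowest place, at 1.51 to 4.43 CPM, to 56.4 to 72.1 CPM, and FKBP5 and SCGB1D2 overlapped between groups.

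PIP, a small glycoprotein of apocrine secretions that serves as a marker of apocrine breast cells, lies on chromosome 7 of GRCh38 from 143132077 to 143139739 (ENSG00000159763.4). It had 12, 15 and 5 counts in the DMSO libraries, or 3.46, 4.43 and 1.51 CPM. The abemaciclib libraries held 190, 230 and 268 counts, or 57.2, 56.4 and 72.1 CPM. The lowest abemaciclib library was thus far above the highest DMSO library. The means were 3.13 ± 1.49 CPM and 61.9 ± 8.81 CPM (SD, n = 3 in each group), with a log2 fold change of 4.28 (standard error 0.26). Only 3 of the 10863 genes tested had a larger one. Among the genes tested, PIP stood at the 3.27 percentile of level with DMSO and at the 74.8 percentile with abemaciclib. These places are a description, since PIP was tested only through its abemaciclib libraries and was picked with this comparison in view. Its coefficient of variation with DMSO was 47.6%, where counting error alone gives 30.6%, so its level without drug is known only roughly.

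**Figure D2:**
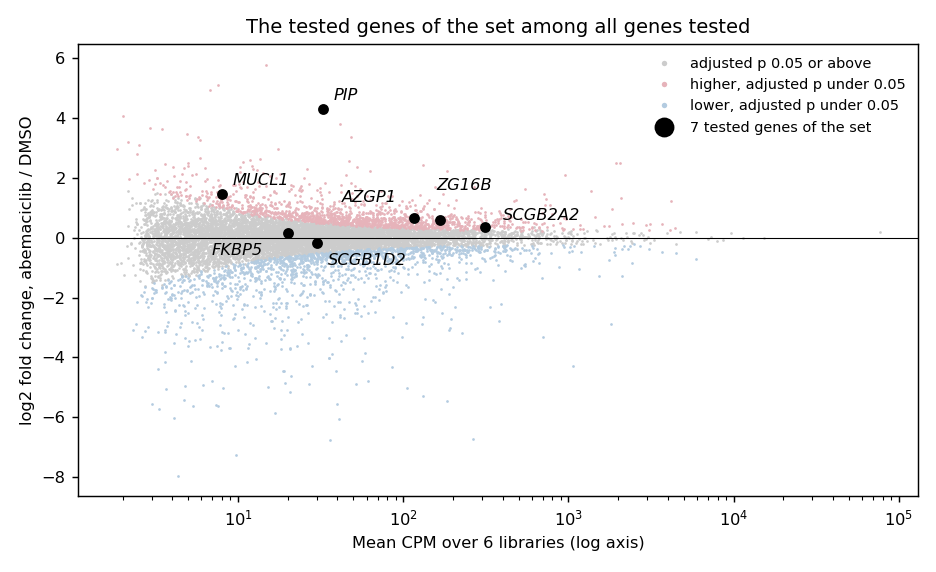
Log2 fold change, abemaciclib over DMSO, against mean CPM (log axis) for the 10863 genes tested, with the 7 genes of the set that had counts in black. PIP lies at 4.28, above nearly all other genes, while SCGB2A2, at 0.35, and FKBP5, at 0.15, lie near 0.

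AZGP1, the zinc-alpha-2-glycoprotein, is a secreted protein with an MHC class I-like fold. The gene is on the minus strand of chromosome 7, from 99966720 to 99976042. Its levels were 96.9, 90.7 and 82.5 CPM with DMSO and 135.2, 121.0 and 172.9 CPM with abemaciclib. All of the latter were higher, and replicate 3 stood apart from the other two. The log2 fold change was 0.67 (standard error 0.13), and 0.51 without that library. The 2 annotated pseudogenes of AZGP1 had a mean of 0.167 counts per library together, against 417 for the gene. PIP had 0.0182 to 0.0489 counts for each count of AZGP1 with DMSO and 0.417 to 0.467 with abemaciclib.

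ZG16B, a secreted lectin-like protein of salivary and other glands also known as PAUF, is on chromosome 16 from 2830253 to 2839585. It had 127.8, 137.7 and 136.2 CPM with DMSO and 190.3, 218.7 and 189.0 CPM with abemaciclib. Replicates were close, with a coefficient of variation of 3.98% and 8.41%, and the groups did not overlap. The log2 fold change was 0.57 (standard error 0.11). MUCL1, a small mucin-like protein largely restricted to breast and skin glands, is on chromosome 12 from 54830518 to 54896008. It was near the limit of detection with DMSO, at 16, 9 and 18 counts (4.62, 2.66 and 5.42 CPM). With abemaciclib it had 50, 33 and 44 counts (15.1, 8.10 and 11.8 CPM). The groups did not overlap, though few counts stand behind them. The log2 fold change was 1.45 (standard error 0.39).

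SCGB2A2 and SCGB1D2 encode mammaglobin A and lipophilin B, secretoglobins that pair with each other in a secreted complex of mammary epithelium. The genes lie on the same strand of chromosome 11, from 62270158 to 62273160 and from 62242239 to 62244812, with 27919 bases between their starts. SCGB2A2 was the most abundant gene of the set, at 271.7, 259.7 and 288.6 CPM with DMSO and 329.0, 360.0 and 358.2 CPM with abemaciclib. Every abemaciclib library was higher, by a small margin (log2 fold change 0.35, standard error 0.10). Without DMSO replicate 2 the log2 fold change was 0.31. SCGB1D2 had 32.0, 33.4 and 29.8 CPM with DMSO. With abemaciclib it had 27.7, 21.6 and 35.2 CPM, on both sides of the DMSO libraries (log2 fold change −0.18, standard error 0.20). For each count of SCGB1D2 there were 7.78 to 9.68 counts of SCGB2A2 with DMSO and 10.2 to 16.7 with abemaciclib, ranges that did not overlap. No test of the difference between the genes was made.

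The other secretoglobins, a family of small secreted proteins of gland and airway epithelium, were nearly silent. Of the 7 listed, 5 had 0 counts in all libraries: SCGB1D1, SCGB1D4 and SCGB1A1 of the same cluster, and SCGB1C1 and SCGB3A2. SCGB2A1, which encodes mammaglobin B and is the only one with enough counts to be tested, had 3.04 ± 0.579 CPM with DMSO and 4.23 ± 2.86 CPM with abemaciclib (SD, n = 3 in each group). Its log2 fold change of 0.47 was not past the threshold (adjusted p = 0.575), and without abemaciclib replicate 3 the log2 fold change was −0.24. Of the other genes in part within 200 kb, INCENP, of the chromosomal passenger complex, was lower (log2 fold change −1.71, adjusted p = 6.16e-06), as was ASRGL1, an asparaginase (−0.74, adjusted p = 0.0136). AHNAK did not pass the threshold (0.17, adjusted p = 0.351).

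FKBP5 lies on the minus strand of chromosome 6 from 35573585 to 35728583. Its product FKBP51 holds the glucocorticoid and progesterone receptors in a low-affinity state. FKBP5 is induced by androgens, glucocorticoids and progestins. It had 16.4, 21.0 and 19.6 CPM with DMSO and 17.2, 26.8 and 18.8 CPM with abemaciclib. The groups overlapped, and abemaciclib replicate 2 was the highest library. The log2 fold change was 0.15 (standard error 0.23), and −0.075 without that library. TMPRSS2, on the minus strand of chromosome 21 from 41464300 to 41531116, had 0 counts in every library, which allows up to 0.736 to 0.904 CPM per library, and no fold change can be given.

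In the order of levels with DMSO, SCGB2A2 came before ZG16B, AZGP1, SCGB1D2 and FKBP5, and the ranges of the 3 libraries did not overlap between any of these neighbours. MUCL1, at 2.66 to 5.42 CPM, and PIP, at 1.51 to 4.43 CPM, came last and overlapped. With abemaciclib, SCGB2A2, ZG16B and AZGP1 kept the first places. PIP came next, above SCGB1D2, at 21.6 to 35.2 CPM, and FKBP5, at 17.2 to 26.8 CPM, which overlapped, and MUCL1 came last. Together the 8 genes summed to 549.5 to 563.6 CPM in the DMSO libraries and 771.6 to 858.1 CPM in the abemaciclib libraries. SCGB2A2 made up 47.3% to 51.2% of their counts with DMSO and 41.7% to 44.3% with abemaciclib, and PIP went from between 0.267% and 0.806% of them to between 6.95% and 8.40%.

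Genes with the most similar profile over the 6 libraries were sought for each member with a mean of at least 20 CPM, among 6132 genes at that level, by the distance between log2 (CPM + 1) values centred on the DMSO mean. For PIP these were PDZK1, a scaffold protein with PDZ domains, and SEC14L2, a lipid-binding protein, at distances of 1.40 and 1.67, with log2 fold changes of 3.80 and 3.35. For AZGP1 they were DEXI (0.140) and RAB11A (0.184), for SCGB2A2 PRDX5 (0.0529) and REEP3 (0.0766), for ZG16B FOXRED2 (0.0701) and ARL3 (0.0928), and for SCGB1D2 NAALADL2 (0.165) and NRDC (0.173). The nearest gene to PIP was thus farther from it than the nearest genes of the other 4 members were from them. With 6 libraries in 2 groups, this distance mostly reads the size of the treatment difference. PIP had only 12, 15 and 5 counts with DMSO, and their scatter also enters its distance.

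Among the factors that open enhancers in luminal cells, FOXA1 had 240.3 ± 7.67 and 253.0 ± 17.8 CPM (SD, n = 3 in each group) and was not past the threshold (log2 fold change 0.07, adjusted p = 0.640). SPDEF, an ETS factor of secretory epithelium, was lower with abemaciclib (log2 fold change −0.37, adjusted p = 0.0119), a call lost without DMSO replicate 3 (−0.32) or abemaciclib replicate 2 (−0.36). The list of pioneer factors, cofactors and chaperones of steroid hormone action held 19 genes, of which 18 were tested. By edgeR 0 were called higher (2 without adjustment, 0 by DESeq2), against 12.5% of all genes tested. The same test called 3 lower (16.7%, against 13.3%), and the median difference was 0.01 on the log2 scale. The other genes that fell were PTGES3, the co-chaperone p23 (−0.57, adjusted p = 0.000408), and STIP1, the co-chaperone HOP (−0.35, adjusted p = 0.0259), whose call was lost with DESeq2, with the replicate block and in 3 of the 6 fits that left out a library. FKBP4, whose product FKBP52 opposes FKBP51 on the glucocorticoid receptor, was close to level (log2 fold change −0.01, adjusted p = 0.934), and its direction turned in 3 of those fits.

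Other androgen-induced genes included some on each side of the threshold. Of 33 listed, mostly from prostate cells, 20 had enough counts. The threshold was passed upwards by 6 (30.0%, against 12.5% of all genes tested) and downwards by 3 (15.0%, against 13.3%), with a median log2 fold change of 0.18. KLK2 and KLK3, the kallikreins by which androgen action is followed in prostate, had 0 counts in all libraries, as did KLK4, TRPM8 and MERTK. STEAP2, a metalloreductase, went from 10.4 ± 0.514 to 23.2 ± 1.09 CPM (SD, n = 3 in each group; log2 fold change 1.15, adjusted p = 0.000534). APOD, a lipid carrier secreted by apocrine cells, went from 18.5 ± 3.99 to 33.8 ± 5.66 CPM (log2 fold change 0.87, adjusted p = 0.00259). ELOVL5, a fatty acid elongase, and ACSL3, a fatty acyl-CoA synthetase, were higher by 0.64 and 0.43 on the log2 scale. TNFAIP8, a regulator of cell death, went from 16.4 ± 4.83 to 2.53 ± 0.641 CPM (log2 fold change −2.68). It had enough counts for the test through the DMSO libraries alone, so no p is given for it. Its call, which is among the 3 lower, is no support. ZBTB10 and TPD52 fell by 0.71 and 0.66 on the log2 scale. Without DMSO replicate 2, ZBTB10 was no longer called.

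The other secretory products of mammary and apocrine glands held several genes that were higher. Of 30 listed, 11 had enough counts and 11 had 0 counts in every library, among them the milk proteins LALBA, CSN2 and CSN3 and the defence proteins LTF, LYZ and LCN2. The edgeR test called 8 of the 11 higher (72.7%, against 12.5% of all genes tested). It called 0 lower (0 without adjustment, and 0 by DESeq2), against 13.3% of all genes tested. The median log2 fold change of the 11 was 0.80 against −0.00 over all genes tested. BPIFB1, which entered the test through the abemaciclib libraries alone, is among the 8 and enters the median. The list was chosen with earlier results of these data known, so these shares are a description only. CLU, the secreted chaperone clusterin, went from 127.6 ± 9.85 to 411.0 ± 38.7 CPM (SD, n = 3 in each group; log2 fold change 1.69, adjusted p = 3.90e-13). BPIFB1, a lipid-binding protein of mucosal fluids, went from 3.33 ± 1.36 to 17.2 ± 2.08 CPM (log2 fold change 2.35). It was tested only because of its level with abemaciclib, so no p is given and its call is no support. The trefoil factors TFF1 and TFF3, oestrogen-responsive secreted peptides, rose by 2.50 and 1.62 on the log2 scale, beside a rise of ESR1, which encodes the oestrogen receptor, by 0.83. The part of ESR1 in these differences was not tested. APOD, MUC1, AGR2 and PSAP also rose, while AGR3, SLPI and CST3 did not pass the threshold. The 3′ end of MUC1 overlaps another gene on its own strand, and the effect on its counts was not tested.

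**Figure D3:**
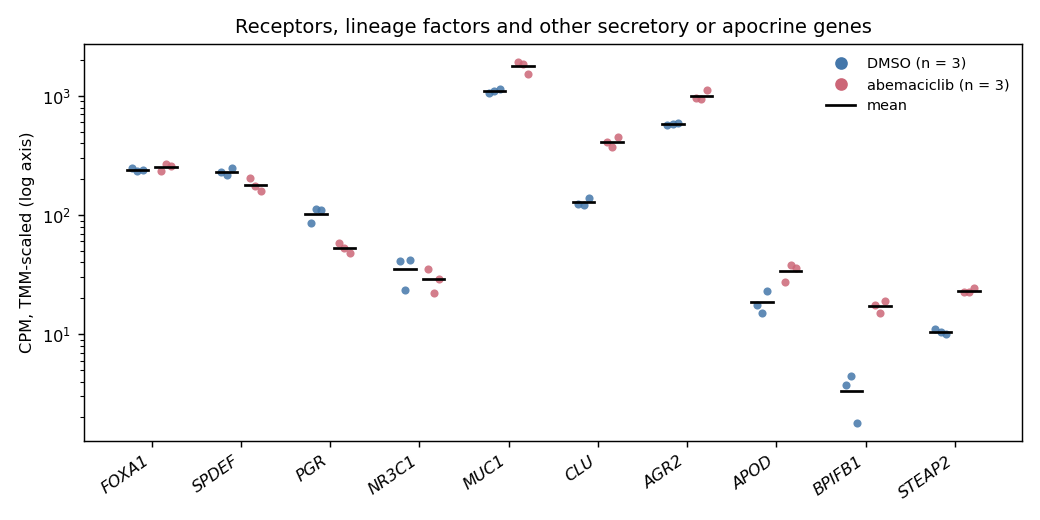
Level in CPM (log axis) of lineage factors, hormone receptors and secretory or apocrine genes outside the set, in 3 DMSO and 3 abemaciclib libraries. Points are libraries and bars are means. CLU moved from a mean of 127.6 to 411.0 CPM, and PGR moved down.

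Genes of molecular apocrine breast tumours, a type with an androgen-driven profile that lacks the oestrogen receptor, lay on both sides of the threshold. Of 24 listed and 12 tested, 3 rose and 2 fell (25.0% and 16.7%, against 12.5% and 13.3% of all genes tested), and the median log2 fold change was −0.22. Without abemaciclib replicate 3, 5 rose. XBP1, a factor of the secretory pathway that is also an oestrogen receptor target, rose with a log2 difference of 0.38 (adjusted p = 0.000866). The other genes higher were APOD and LRRC26. The groups overlapped for LRRC26, and its 3′ end overlaps another gene on its own strand. DHRS2, a mitochondrial dehydrogenase, fell from 16.5 ± 0.588 to 4.89 ± 1.57 CPM (SD, n = 3 in each group; log2 fold change −1.74, adjusted p = 0.000144), and SPDEF was the other gene lower. ESR1, the oestrogen receptor that this tumour type lacks, went from 209.4 ± 17.3 to 371.3 ± 28.8 CPM (log2 fold change 0.83, adjusted p = 2.92e-07).

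Receptors for other steroids can bind the same DNA element. PGR, the progesterone receptor, went from 102.5 ± 13.9 to 53.0 ± 5.27 CPM (SD, n = 3 in each group; log2 fold change −0.95, adjusted p = 4.04e-06). NR3C1, the glucocorticoid receptor, had 35.4 ± 10.2 and 28.9 ± 6.45 CPM and was not called (log2 fold change −0.30, adjusted p = 0.331). Among 14 receptors and targets listed and 11 tested, 2 rose (18.2%, against 12.5% of all genes tested) and 4 fell (36.4%, against 13.3%). The median log2 fold change was −0.10. TSC22D3, the glucocorticoid-induced protein GILZ, was at 0.10 on the log2 scale (adjusted p = 0.642), and at −0.081 without abemaciclib replicate 3. DUSP1, a MAP kinase phosphatase, and STC1, a secreted glycoprotein, rose by 0.98 and 0.60. MT2A, a metallothionein, fell from 407.5 ± 11.6 to 44.9 ± 12.2 CPM (log2 fold change −3.19, adjusted p = 1.03e-16). The falls of CEBPD (−0.52, adjusted p = 0.0370) and KLF9 (−0.45, adjusted p = 0.0247) were lost with DESeq2. That of CEBPD was also lost with the replicate block, with no filter on low counts and in each of the 6 fits that left out a library, and that of KLF9 without DMSO replicate 3 or abemaciclib replicate 2.

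Of 25 enzymes that make or inactivate androgens and related steroids, 6 were tested and 9 had 0 counts in every library, among them CYP17A1 and CYP19A1. STS, which frees steroids from their sulfates, went from 6.19 ± 0.700 to 20.7 ± 2.37 CPM (SD, n = 3 in each group; log2 fold change 1.74, adjusted p = 2.16e-05). HSD17B1, which reduces oestrone to oestradiol, rose by 0.78 (adjusted p = 0.00135), though an antisense gene overlaps its 3′ end and the strand setting of the counting is not given in the sources used here. UGT2B15, which conjugates dihydrotestosterone, had 4, 3 and 13 counts with DMSO and 14, 37 and 15 with abemaciclib, and close relatives in the UGT2B family leave these counts uncertain. It was tested only because of its level with abemaciclib, so no p is given and its call is no support. Its log2 fold change of 1.55 became 2.47 without DMSO replicate 3 and 1.05 without abemaciclib replicate 2, and its call was lost with DESeq2, with the replicate block and without DMSO replicate 1, DMSO replicate 2 or abemaciclib replicate 2. SRD5A1, the 5-alpha-reductase that makes dihydrotestosterone, was not called (−0.31, adjusted p = 0.343). Of the 6 tested, 3, UGT2B15 among them, were called higher and 0 lower by edgeR (0 without adjustment, and 0 by DESeq2).

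Families of the members without a clear difference were set beside them. Among 12 other transmembrane serine proteases and inhibitors, 4 were tested and 6 had 0 counts in every library, like TMPRSS2. By edgeR 3 of the 4 were called higher (75.0%, against 12.5% of all genes tested) and 0 lower (against 13.3%). ST14, matriptase, had 98.0 ± 11.1 and 122.8 ± 6.23 CPM (SD, n = 3 in each group; log2 fold change 0.32, adjusted p = 0.0419), a call lost with DESeq2, with total counts as the only scaling, with no filter on low counts, with the replicate block and in 4 of the 6 fits that left out a library. Its inhibitors SPINT1 and SPINT2 rose by 0.57 and 0.33, and the call of SPINT2, whose 3′ end overlaps a gene on the other strand, was lost without DMSO replicate 2 or 3. Among 14 FK506-binding proteins related to FKBP5, 9 were tested. By edgeR 2 were higher (22.2%, against 12.5% of all genes tested). The test called 0 lower (1 without adjustment, 0 by DESeq2), against 13.3% of all genes tested. FKBP10, a collagen-folding isomerase of the endoplasmic reticulum, went from 26.2 ± 2.41 to 58.8 ± 10.7 CPM (log2 fold change 1.17, adjusted p = 6.80e-06). FKBP1A, the binding protein of FK506, rose by 0.53. FKBP2 is listed at 0 in all libraries and overlaps another gene on its own strand, so its level is not known.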

How the data were processed

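Expression was profiled in parental ZR-75-1 cells with DMSO (3 libraries) or abemaciclib (3 libraries), grouped by their labels. Per the methods and the submitters' processing notes, the authors trimmed the reads, mapped them against hg38 (STAR 2.7.5b) and counted reads per gene (featureCounts 2.0.1). The deposited table holds these counts without scaling or filtering. Totals were 3317860 to 4013156 counts per library, which limits genes of few counts.

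Abemaciclib was compared with DMSO by the quasi-likelihood test of edgeR 4.0.16 in R 4.3.3, after filterByExpr and TMM scaling, with p-values adjusted by Benjamini–Hochberg over 10863 genes and a threshold of 0.05. The test was checked on simulated counts. The standard error is the log2 fold change divided by the square root of F. Symbols matched 60445 identifiers. Coordinates and overlaps, over the last 500 bases of the canonical transcript, were read from GENCODE v44 on GRCh38. The methods call the cultures biologically independent.

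The members, lists and naming rule were chosen with earlier results of these data known. Named were the members, fixed genes of each list and up to 4 genes per list and direction with groups that did not overlap, by size of change, plus the 2 nearest profiles per member. Others were named after their values were seen. Some listed genes are not reported here and enter no list count. Alternatives were DESeq2 1.42.0, its size factors, total counts, other filters, a replicate block and each library left out.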

Additional observations from a re-analysis of the deposited data

How the results depend on the processing

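Of the counts of genes under an alternative, 256 stayed within 1.5 times the reported count and 9 moved. With at least 10 counts in every library, 3 members were past the threshold upwards in place of 5, since PIP and MUCL1 no longer entered the test by construction. DESeq2 called 2 glucocorticoid and progesterone response genes lower in place of 4. When 1 library was left out, 4 to 5 members were past the threshold upwards, 0 to 1 genes were higher among pioneer factors, cofactors and chaperones, 2 to 5 were higher and 1 to 2 lower among molecular apocrine genes, 2 to 3 were lower among glucocorticoid and progesterone response genes and 1 to 3 were higher among serine proteases and inhibitors. The cause was not tested. Of the fold changes of single genes under an alternative, 576 kept their direction and side of the threshold, 47 were no longer past it, 1 passed it (NRDC without abemaciclib replicate 3) and 6 turned direction. With 1 library left out, the log2 fold change ran from −0.075 to 0.27 for FKBP5, from −0.24 to 0.76 for SCGB2A1, from −0.081 to 0.18 for TSC22D3 and from −0.046 to 0.013 for FKBP4, which turned 3 times (0.013, 0.0072 and 0.00090). Over all alternatives, that of PIP was 3.96 to 4.61, that of MUCL1 1.20 to 1.66 and that of AZGP1 0.51 to 0.78.

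The replicate block left 1139 genes higher and 1280 lower in place of 1354 and 1442, and 5 members higher. Deviations of libraries with the same replicate number correlated at −0.04, 0.01 and −0.09, and not every library correlated best with its own number, so the numbers were not taken as pairs. DESeq2 gave 1069 higher and 1165 lower. With 3 libraries a group and 3317860 to 4013156 counts in each, the depth limits genes of few counts such as MUCL1, UGT2B15 and SCGB2A1.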
